A study of Mus musculus and Mus musculus
Rattus norvegicus with 30 samples.

Results

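The genes described here were 8 genes of cholesterol synthesis and its control by sterols, namely Hmgcs1, Idi1, Fdps, Sqle, Lss, Dhcr7, Insig1 and Srebf2. They were chosen by gene name with earlier results of these data known, as were the gene lists below. Their shares beside those of all genes are therefore a description and not a test. All 8 were listed in every gene table of the series, among 19919 gene names in the joined mouse embryonic stem cell (mESC) tables, 34923 in the mouse-allele table and 25245 in the rat-allele table of the mouse-rat hybrid cells. All 8 also passed the filter on low counts in every fit. None of the 8 encodes an uptake receptor, so the genes of cholesterol uptake were counted as a list of their own.

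Cells make cholesterol from acetyl-CoA through mevalonate, isoprenoid diphosphates, squalene and lanosterol, each step having its own enzyme. The pathway is governed by SREBP-2, the product of Srebf2, a transcription factor that is held in the endoplasmic reticulum membrane together with SCAP and INSIG proteins while sterols are plentiful. When sterols fall, SREBP-2 moves to the Golgi, is cut by a pair of proteases and enters the nucleus, where it binds sterol regulatory elements near its targets, usually with NF-Y or Sp1 as partners. Cdx2, the factor induced in these cells, is a homeobox protein of the trophoblast and the intestine, and the trophoblast later forms the placental tissue through which lipids reach the embryo.

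RNA-seq of polyadenylated RNA was available for 20 mESC and 4 hybrid libraries. The mESC libraries were WT cells and 9 stable lines with a lentiviral, doxycycline-inducible and FLAG-tagged Cdx2, with 2 libraries per condition. The lines carried mouse Cdx2 (mCdx2-OE), rat Cdx2 (rCdx2-OE) or mutant rat Cdx2. The mutants held 1, 2 or all 3 of the amino acid changes of the mouse DNA-binding domain. These are numbered 1, 2 and 3 in the construct names (R1-OE, R2-OE, R3-OE, R12-OE, R13-OE, R23-OE and R123-OE). Lines with mouse or rat Cdx2 are called intact, as no change was introduced. Mouse Cdx2 nevertheless holds all 3 changes by nature, and R123-OE holds them in rat Cdx2. RMES cells came from the fusion of a mouse and a rat haploid embryonic stem cell, so that each holds 1 mouse and 1 rat genome, and 2 WT, 1 mCdx2-OE and 1 rCdx2-OE library were sequenced. The last 2 were pooled as Cdx2-OE RMES cells (n = 2). The labels do not state whether the WT mESCs were the parental cells or a line kept without doxycycline, and each line is 1 transduced population. They also do not say that replicates came from separate cultures, so the p-values measure the spread between these libraries, which may be technical.

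Total counts per library were 74960057 and 94686029 for the WT mESCs, 12698443 to 24315929 for the 18 induced mESC libraries, and 36166038 to 41418817 (mouse allele) and 29453412 to 35249756 (rat allele) for RMES cells. Levels are given as TMM-normalised CPM, each library's counts divided by its scaled total. Cdx2 itself stood at 1.21 to 1.36 CPM in WT mESCs and at 37.2 to 146.6 CPM in the induced libraries. In the libraries labelled WT RMES, however, Cdx2 was already at 127.8 CPM on the mouse allele and at 446.2 CPM on the rat allele (means, n = 2). Counted on the mouse genome, Cdx2 was at 967.5 CPM in mCdx2-OE RMES cells, and on the rat genome at 879.8 CPM in rCdx2-OE RMES cells. On the other genome it was at 47.2 and 4.45 CPM. Reads were assigned by edit distance, so those of a mouse or rat construct can be counted on that genome. These values therefore cannot tell construct from allele. Both values on the other genome were nevertheless under those of the WT RMES libraries on that genome (446.2 and 127.8 CPM). Every one of 10 pluripotency genes stayed above 1 CPM in the WT and the induced mESC libraries. Their summed level was 5987 to 6119 CPM in WT and 3532 to 6013 CPM in induced libraries, but single genes went both ways. Pou5f1, Sox2, Dppa5a and Utf1 were lower than WT in every induced library, and Nanog, Klf4 and Tfcp2l1 were higher in every one. With intact Cdx2, Esrrb, Zfp42 and Tdgf1 were lower than WT. In mutants Esrrb was higher, while Zfp42 and Tdgf1 overlapped WT. The summed level of 10 trophoblast stem cell genes was 161.7 to 163.6 CPM in WT and 173.7 to 896.9 CPM in induced libraries. With intact Cdx2 the keratins Krt8 (170.1 to 259 CPM, 13.6 to 14.5 CPM in WT) and Krt18 (230.3 to 342.3 CPM, 8.97 to 9.86 CPM in WT) made up most of it. Of the other trophoblast genes, Esx1, Krt7, Gata3 and Ascl2 were also higher than WT with intact Cdx2. Esx1 was at 35.9 to 65.3 CPM there, against 1.743 to 1.862 CPM in WT. Krt7 was at 43.32 to 64.49 CPM, against 1.035 to 1.222 CPM in WT. Esx1, Krt7 and Gata3 were higher in every mutant library too, while Ascl2 overlapped WT in mutants. Eomes, in contrast, was lower in every induced library. It was at 7.81 to 8.57 CPM in WT, 3.08 to 4.98 CPM with intact Cdx2 and 3.82 to 5.995 CPM in mutants. Tfap2c was lower in every mutant library (81.1 to 90.6 CPM against 121.5 to 122.3 CPM in WT) but overlapped WT with intact Cdx2. In the same order, WT before induced, the sums were 6.70 to 7.14 CPM and 17.2 to 33.7 CPM for 8 primitive endoderm genes, 3.60 to 4.02 CPM and 11.7 to 25.0 CPM for the 5 listed of 6 posterior mesoderm genes, in which Hoxa9 made up most of the induced level, and 34.4 to 34.6 CPM and 1.28 to 4.42 CPM for the 7 listed of 8 fibroblast feeder genes. The part of these shifts in the results below was not tested, and in bulk RNA fewer cells of a type and less RNA per cell cannot be told apart.

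The genes lie on 6 mouse chromosomes (GRCm38). Hmgcs1 spans chr13:119690379-119708260 and Idi1 chr13:8885501-8892451, both on the plus strand, while Fdps lies on the minus strand at chr3:89093588-89101959. Sqle (chr15:59315077-59331192), Lss (chr10:76531588-76557138), Dhcr7 (chr7:143823145-143848410), Insig1 (chr5:28071363-28078662) and Srebf2 (chr15:82147181-82205379) are on the plus strand. Promoter windows of 300 bases, 250 before and 50 after a transcription start of RefSeq, were at hand for 6 of the 8 genes, all but Sqle and Fdps. They were searched on both strands for the core of a sterol regulatory element (TCACNCCAC), the E-box CACGTG, the CCAAT box bound by NF-Y and the GC box GGGCGG bound by Sp1. The element core was in 1.24% of 32817 windows of all genes and its looser form TCACNCNAC in 2.71%. Of the 6 genes, Hmgcs1 alone held either, at 1 place that began 137 bases before the start. CACGTG was in 7.15% of all windows and in a window of Insig1 and of Dhcr7. CCAAT was in 37.4% of all windows and in 6 of the 8 windows of these genes. GGGCGG was in 35.6% of all windows and in 7 of these 8. Each was in at least 1 window of all 6 genes, but CCAAT at Dhcr7 only in the window chr7:143829964-143830263, inside the gene. A match is a description of these letters and not a site shown to be bound.

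The bases upstream of Hmgcs1, Insig1 and Srebf2 are shown because these genes are the entry enzyme, the sterol-regulated brake and the regulator of the pathway. Capitals mark the element core, CACGTG and CCAAT (read as ATTGG on the other strand), and the coordinates (RefSeq, GRCm38.p6, plus strand) end before the annotated gene start.
Hmgcs1, chr13:119690101-119690350: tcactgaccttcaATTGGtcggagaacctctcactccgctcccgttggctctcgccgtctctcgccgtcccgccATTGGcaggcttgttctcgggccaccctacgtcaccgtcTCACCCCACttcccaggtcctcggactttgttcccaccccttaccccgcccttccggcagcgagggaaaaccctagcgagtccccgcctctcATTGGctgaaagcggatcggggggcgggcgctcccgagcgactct
Insig1, chr5:28071162-28071362: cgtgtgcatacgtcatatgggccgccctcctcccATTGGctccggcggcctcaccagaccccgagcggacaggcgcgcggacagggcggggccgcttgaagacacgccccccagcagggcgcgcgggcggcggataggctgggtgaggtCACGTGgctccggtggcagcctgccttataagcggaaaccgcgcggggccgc
Srebf2, chr15:82147019-82147180: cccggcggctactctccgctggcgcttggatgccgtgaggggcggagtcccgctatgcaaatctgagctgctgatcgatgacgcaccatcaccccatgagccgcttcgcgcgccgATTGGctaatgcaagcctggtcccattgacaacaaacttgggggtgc
The shown Hmgcs1 stretch holds 3 inverted CCAAT boxes and the element core, that of Insig1 a CACGTG and 1 inverted CCAAT box, and that of Srebf2 1 inverted CCAAT box.

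Before induction, the 8 genes covered a wide range of levels. Compared per kb of annotated length, the order in WT mESCs was Hmgcs1 at 50.06 CPM per kb, Srebf2 at 41.8, Insig1 at 28.1, Sqle at 21.2, Idi1 at 12.4, Dhcr7 at 8.33, Lss at 6.60 and Fdps at 0.720, and no neighbours in this order overlapped between the 2 libraries. On the mouse allele of WT RMES cells the order was the same except that Insig1 (94.1 CPM per kb) stood above Srebf2 (62.3). On the rat allele Fdps stood at the top with 155.9 CPM per kb and overlapped Hmgcs1 at 153.0, followed by Insig1, Srebf2, Sqle, Idi1, Dhcr7 and Lss. The mouse Fdps values rest on few reads. Its counts were 47 to 386 per mESC library, against 546 to 25952 for the other 7 genes. Reads of genes with near-identical copies can be lost in counting, so the mouse Fdps values are uncertain, and their cause was not tested.

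To ask how induction of the intact factors changed the pathway, mCdx2-OE and rCdx2-OE mESCs were each compared with the same 2 WT libraries. Cholesterol genes were mostly higher after induction of either factor. With an adjusted p under 0.05, 7 of the 8 genes rose in mCdx2-OE and 7 in rCdx2-OE, against 34% and 34.4% of all 16000 genes tested. Over 2-fold as well, Fdps, Dhcr7 and Insig1 rose in mCdx2-OE (3 of 8, against 18.4% of all genes) and the same 3 together with Hmgcs1 in rCdx2-OE (4 of 8, against 19%). Idi1 did not pass in either, and none of the 8 fell. The median log2 fold change of the 8 genes was 0.78 in mCdx2-OE and 0.85 in rCdx2-OE, and that of all genes tested was -0.03 and -0.04. Tests are edgeR quasi-likelihood tests, their p-values adjusted over all genes by the method of Benjamini and Hochberg, and errors of log2 fold changes are standard errors (SE).

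Hmgcs1 encodes the cytosolic synthase that makes HMG-CoA, the substrate of the rate-limiting reductase. Its level was 230.1 and 229.9 CPM in WT, 419.5 and 482.9 CPM in mCdx2-OE and 438.2 and 488.3 CPM in rCdx2-OE. All 4 induced libraries lay above both WT libraries, and the log2 fold change was 0.97 (SE 0.10, adjusted p = 1.9e-07) in mCdx2-OE and 1.01 (SE 0.10, adjusted p = 1.2e-07) in rCdx2-OE. It thus sat at the 2-fold line. Without mCdx2-OE replicate 1 the value was 1.06 and passed the line, and without rCdx2-OE replicate 2 it was 0.92 and did not.

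Idi1, the isomerase that interconverts isopentenyl and dimethylallyl diphosphate, stood at 45.7 and 41.3 CPM in WT. It was at 30.03 and 46.05 CPM in mCdx2-OE and at 34.2 and 51.5 CPM in rCdx2-OE. The groups overlapped, and within each replicate number the sign differed. The log2 ratio to WT was -0.61 in replicate 1 and 0.16 in replicate 2 for mCdx2-OE, with an adjusted p of 0.39 over both.

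Fdps, the farnesyl diphosphate synthase whose product is shared by sterols and protein prenylation, stood at 2.96 and 3.10 CPM in WT. It was at 16.1 and 6.83 CPM in mCdx2-OE and at 14.5 and 8.50 CPM in rCdx2-OE. All induced libraries were above WT, but replicate 1 stood well above replicate 2 in both lines, with log2 ratios to WT of 2.45 and 1.14 in mCdx2-OE and of 2.29 and 1.46 in rCdx2-OE. The log2 fold change was 1.95 (SE 0.30, adjusted p = 2.2e-05) in mCdx2-OE and 1.96 (SE 0.30, adjusted p = 2.2e-05) in rCdx2-OE.

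Sqle, the squalene epoxidase, was at 119 and 115.6 CPM in WT, at 157.7 and 172.3 CPM in mCdx2-OE and at 175.9 and 189.6 CPM in rCdx2-OE. Lss, the cyclase that closes squalene epoxide into lanosterol, was at 70.8 and 71.7 CPM in WT, at 111.8 and 103.3 CPM in mCdx2-OE and at 119.9 and 110.3 CPM in rCdx2-OE. Both genes rose without overlap between groups, by a log2 fold change of 0.49 (SE 0.07) and 0.59 (SE 0.07) in mCdx2-OE and of 0.64 (SE 0.07) and 0.69 (SE 0.07) in rCdx2-OE. Dhcr7, the reductase of the last step to cholesterol, was at 48.8 and 48.15 CPM in WT. It was at 114.6 and 113.8 CPM in mCdx2-OE and at 123.6 and 124.1 CPM in rCdx2-OE, a spread of under 1 CPM within each pair. Its log2 fold change was 1.24 (SE 0.08, adjusted p = 8.7e-10) in mCdx2-OE and 1.35 (SE 0.08, adjusted p = 2.8e-10) in rCdx2-OE.

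Of the control genes, Insig1, which retains SCAP and SREBP-2 in the endoplasmic reticulum and helps degrade HMG-CoA reductase, was at 89.1 and 84.7 CPM in WT. It was at 191.6 and 219.3 CPM in mCdx2-OE and at 190.3 and 214.8 CPM in rCdx2-OE. Its log2 fold change was 1.24 (SE 0.09, adjusted p = 6.1e-09) and 1.22 (SE 0.09, adjusted p = 6.7e-09). Srebf2, which encodes SREBP-2 itself, was at 303.5 and 296.4 CPM in WT, at 410.9 and 390 CPM in mCdx2-OE and at 401.7 and 420 CPM in rCdx2-OE. The rise of Srebf2 was the smallest among the 7 that passed in each line, with a log2 fold change of 0.42 (SE 0.08, adjusted p = 0.00013) and 0.45 (SE 0.08, adjusted p = 5.5e-05).

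**Figure D1:**
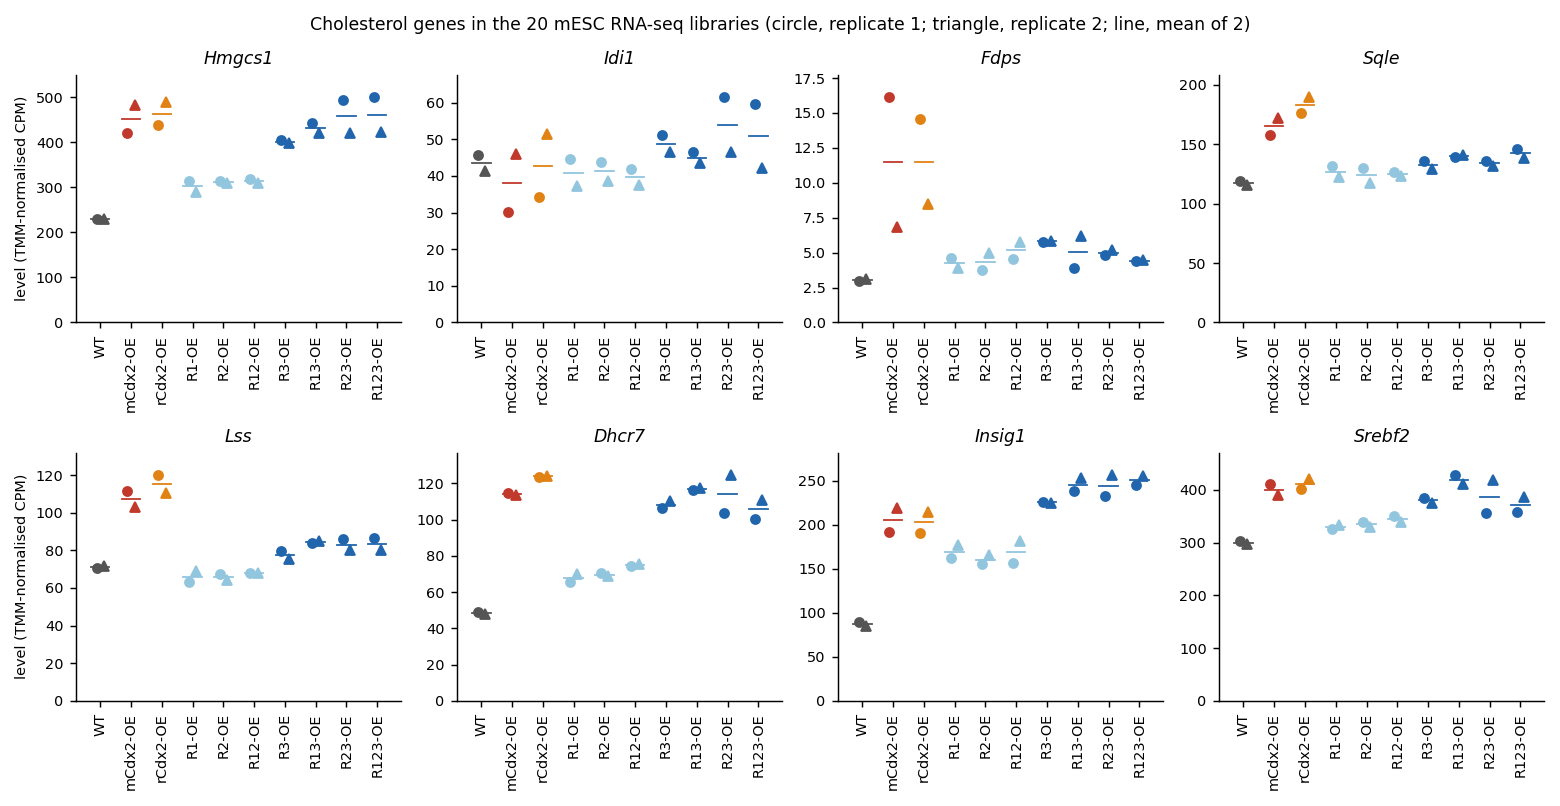
Level of each of the 8 genes (y axis, TMM-normalised CPM) in the 20 mESC libraries by condition (x axis), circles being replicate 1, triangles replicate 2 and lines the mean of 2. Hmgcs1, Fdps, Dhcr7, Insig1 and Srebf2 were lowest in WT, and the mutants with change 3 (dark blue) lay above those without it (light blue) for Hmgcs1, Lss, Dhcr7, Insig1 and Srebf2.

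Mouse and rat Cdx2 were then compared with each other directly. None of the 8 genes passed, at an adjusted p of 0.955 or more for each, against 0.0187% of all genes, which is 3 of 16000 genes by edgeR and 22 by DESeq2, with 857 genes at an unadjusted p under 0.05. The difference between the 2 lines ranged from -0.17 (SE 0.21, Idi1) to 0.02 (SE 0.09, Insig1) on the log2 scale. Relative to its error the difference was largest for Sqle, at -0.15 (SE 0.07, unadjusted p = 0.06), and the error was largest for Fdps (SE 0.29). A p above the threshold does not show that the factors acted alike on these genes.

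The 7 mutants addressed whether 1 or 2 of the 3 changes alter what the factor does. Taken as the mean of the 7, they were compared with the same 2 WT libraries. Here 6 of the 8 genes rose with an adjusted p under 0.05 (34.9% of all genes did), all but Idi1 and Lss, and only Insig1 rose over 2-fold (12.3% of all genes), with a log2 fold change of 1.24 (SE 0.08, adjusted p = 4.3e-10). The calls of Fdps and Sqle were lost without either WT library (adjusted p = 0.06 to 0.12). Taken one by one, Hmgcs1, Dhcr7 and Insig1 passed in all 7 mutants, with log2 fold changes of 0.39 to 1.004, 0.48 to 1.27 and 0.88 to 1.53. Srebf2 passed in 5, Sqle in 4, Lss in 3, Fdps in 2 and Idi1 in none.

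Against the mean of the intact mCdx2-OE and rCdx2-OE lines, 6 of the 8 genes were lower in the mutants, against 33.4% of all genes. As mCdx2-OE holds all 3 changes, this does not compare changed with unchanged DNA-binding domains. The difference was -1.27 for Fdps (SE 0.17), -0.57 for Lss (SE 0.04), -0.40 for Sqle (SE 0.04), -0.38 for Dhcr7 (SE 0.04), -0.28 for Hmgcs1 (SE 0.05) and -0.15 for Srebf2 (SE 0.04), on the log2 scale, with adjusted p-values of 0.0056 or less. Insig1 differed by 0.01 (SE 0.05, adjusted p = 0.86), and Idi1 by 0.18 (SE 0.12, adjusted p = 0.20). The Idi1 difference passed without mCdx2-OE replicate 2 (0.36) or rCdx2-OE replicate 2 (0.35). For Lss the mutants were near WT. The 6 libraries without change 3 lay at 63.02 to 68.8 CPM, under both WT libraries, and the 8 with it at 75.4 to 86.6 CPM, between WT and the intact factors. The mutant libraries also lay apart from the intact lines on the second principal component of all genes, so a difference at these genes and one of the lines as a whole cannot be told apart.

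Among the mutants, the levels split by change 3. Mutants with change 3 (n = 8) and without it (n = 6) did not overlap for 5 of the 8 genes, with change 3 being the higher side in each. Of all 15114 genes tested, 10% were higher with change 3 without overlap and 10.6% lower. Dhcr7 ran from 65.3 over a median of 70.1 to 75.6 CPM without change 3, and from 100.5 over 110.5 to 124.4 CPM with it. Insig1 ran from 154.9 over 163.6 to 181.8 CPM without, and from 225 over 242 to 255.9 CPM with change 3, which is above all 4 libraries of the intact factors. Hmgcs1 ran from 290.5 over 311.6 to 317.9 CPM and from 397.5 over 421.5 to 500.1 CPM, the second range reaching the intact lines. Srebf2 was at 325.1 to 350.1 CPM and 355.4 to 427.5 CPM, a gap of few CPM. Idi1 (37.1 to 44.6 and 42.2 to 61.5 CPM), Fdps (3.77 to 5.76 and 3.92 to 6.17 CPM) and Sqle (117.6 to 131.6 and 129.2 to 146.3 CPM) overlapped.

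An additive model with 1 term for each change, fitted over rCdx2-OE and the 7 mutants (16 libraries), gave the effect of each change with its error. Its only construct without a change was rCdx2-OE, which lay apart from the mutants on the second principal component (59.8 and 54.7, against -23.3 to -6.05). The effects and errors therefore also carry the difference between rCdx2-OE and the mutants as a whole. Neither change 1 nor change 2 passed for any of the 8 genes, and edgeR called 0% of all 15114 genes for change 1 and 0% for change 2. At an unadjusted p under 0.05 there were 1995 and 1569 genes, and DESeq2 called 24 and 2. For the 8 genes the effects of change 1 ran from -0.44 (Fdps, SE 0.21) to -0.01 (Insig1, SE 0.06), and those of change 2 from -0.43 (Fdps, SE 0.21) to 0.06 (Idi1, SE 0.09). Fitted to the 14 mutant libraries alone, a choice made after seeing that rCdx2-OE stood apart from the mutants, they were between -0.09 and 0.09 (change 1) and between -0.08 and 0.11 (change 2), and again none passed.

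With change 3, in contrast, 4 of the 8 genes were called higher, against 18.2% of all genes. The log2 effect was 0.46 for Insig1 (SE 0.06, adjusted p = 4.8e-05), 0.43 for Dhcr7 (SE 0.11, adjusted p = 0.0079), 0.34 for Hmgcs1 (SE 0.10, adjusted p = 0.012) and 0.27 for Idi1 (SE 0.09, adjusted p = 0.033). By means of 2, R3-OE, with change 3 alone, lay above rCdx2-OE for Insig1 (225.4 against 202.6 CPM) and Idi1 (48.8 against 42.8 CPM). It lay below rCdx2-OE for Dhcr7 (108.3 against 123.8 CPM) and Hmgcs1 (400.9 against 463.2 CPM). The Idi1 call was lost in 8 of 16 fits that left out 1 library, namely without replicate 1 of rCdx2-OE, R3-OE, R13-OE, R23-OE or R123-OE or replicate 2 of R1-OE, R2-OE or R12-OE, at 0.22 to 0.27 and adjusted p of 0.052 to 0.077. Srebf2 (0.14, adjusted p = 0.077) passed without rCdx2-OE replicate 1 (0.15) or replicate 2 (0.16). In the 14 mutant libraries alone, 7 of the 8 genes were higher with change 3, and 26.7% of all 14699 genes were then called higher. Lss (0.32), Srebf2 (0.21) and Sqle (0.14, against -0.01 with rCdx2-OE in the fit) were then added, and Fdps did not pass. Cdx2 RNA was lower with change 3, by 0.74 on the log2 scale (adjusted p = 0.037), at 37.2 to 94.4 CPM with it and 60.6 to 146.6 CPM in the mutants without it. It also moved with the replicate number, being higher in replicate 1 in all 7 mutants. Within replicate 1 it was at 61.95 to 94.4 CPM with change 3 and at 144.7 to 146.6 CPM without, and within replicate 2 at 37.2 to 44.3 CPM and at 60.6 to 68.8 CPM, so the groups did not overlap within either number. The part of the Cdx2 level in these differences was not tested. Set beside this, mCdx2-OE, which also holds change 3, did not pass against rCdx2-OE at any of the 8 genes. That log2 difference was 0.02 for Insig1, -0.12 for Dhcr7, -0.04 for Hmgcs1 and -0.17 for Idi1. Each construct is 1 transduced line whose 2 libraries were counted as replicates, so the p-values do not fully cover differences between lines.

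**Figure D2:**
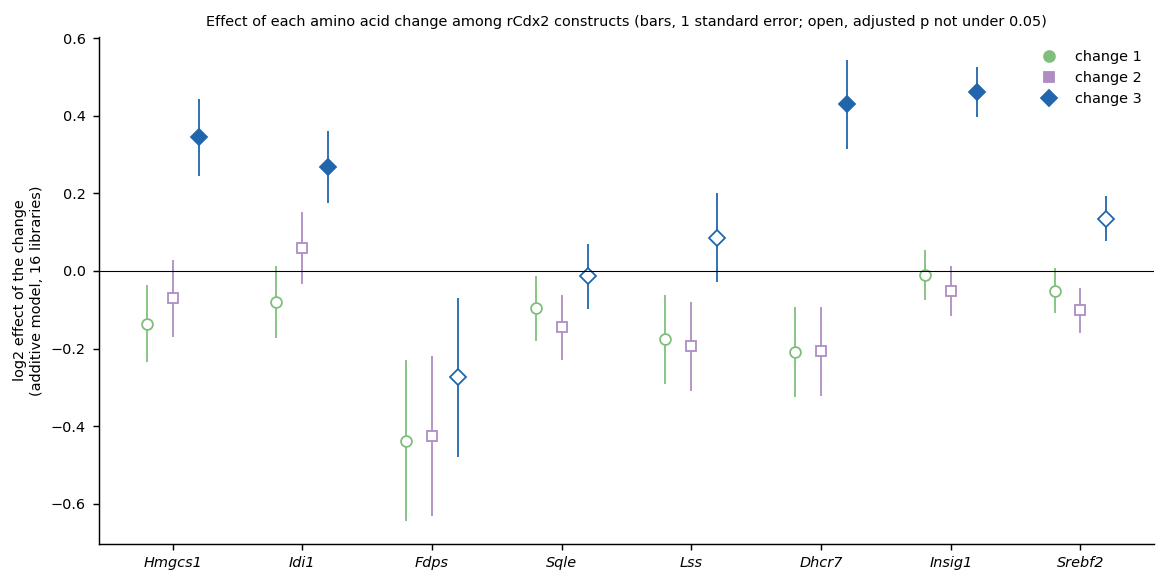
Effect of changes 1, 2 and 3 on each gene (y axis, log2 scale, additive model over 16 libraries), with bars of 1 SE and open symbols where the adjusted p was not under 0.05. Filled symbols are seen for change 3 alone, at Hmgcs1, Idi1, Dhcr7 and Insig1. The fit includes rCdx2-OE, the only construct without a change, which lay apart from the mutants.

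The hybrid cells place both genomes in 1 nucleus, so that each allele could be followed under the same induction. With both constructs pooled, Cdx2 itself did not pass on either allele. Its log2 fold change was 1.93 (SE 1.145, adjusted p = 0.14) on the mouse and 0.06 (SE 0.67, adjusted p = 0.94) on the rat allele. In mESCs it was 6.45 in mCdx2-OE and 5.74 in rCdx2-OE, so the 2 inductions are not of like size by these counts. Levels on the mouse and the rat allele are CPM of the table of that genome. Over 2-fold, none of the 8 genes changed on either allele, while 44.5% of all mouse-allele genes and 42.5% of all rat-allele genes did. At any fold, 3 of the 8 rose (42.8% of all genes) and 3 fell (39%) on the mouse allele, and 4 rose (43.5%) and 3 fell (39%) on the rat allele. These shares of the 8 genes were near those of all genes. The libraries labelled WT RMES already held Cdx2 RNA, as given above, and the summed pluripotency genes on the mouse allele were at 8027 to 8145 CPM in WT and 3036 to 3111 CPM after induction. The trophoblast genes were at 173 to 181.9 CPM and 1037 to 1176 CPM. Their part in the results was not tested.

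Dhcr7 rose on both alleles. On the mouse allele it was at 124.5 and 114.7 CPM in WT and at 165.5 (mCdx2-OE) and 171.5 CPM (rCdx2-OE), and on the rat allele at 90.2 and 86.4 CPM and at 154.7 and 156.3 CPM. The log2 fold change was 0.49 (SE 0.06, adjusted p = 4.5e-06) and 0.82 (SE 0.06, adjusted p = 3.1e-09). Hmgcs1 fell on both alleles, from 600.2 and 585.9 CPM to 409.6 and 450.8 CPM on the mouse allele and from 505.1 and 480.2 CPM to 351.1 and 404.1 CPM on the rat allele. Its log2 fold change was -0.46 (SE 0.06, adjusted p = 1.2e-05) and -0.38 (SE 0.07, adjusted p = 0.00013). Insig1 also fell, from 295.8 and 286.1 CPM to 211.9 and 229.7 CPM on the mouse allele (log2 fold change -0.40, SE 0.06). On the rat allele Insig1 went from 183.1 and 182 CPM to 159.9 and 167.3 CPM (-0.16, SE 0.06).

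Idi1 and Srebf2 behaved differently on the 2 alleles. Idi1 fell on the mouse allele, from 75.0 and 77.8 CPM to 60.1 and 62.7 CPM (log2 fold change -0.32, SE 0.06), and rose on the rat allele, from 109.1 and 117.1 CPM to 125 and 124 CPM (0.14, SE 0.06). Srebf2 fell on the rat allele, from 370.7 and 363.9 CPM to 276.7 and 300.4 CPM (-0.35, SE 0.06). On the mouse allele it was at 455.2 and 439.5 CPM in WT and at 459.2 and 476.6 CPM after induction (0.06, SE 0.06, adjusted p = 0.29). Lss rose on both, from 98.6 and 93.3 CPM to 101.4 and 118.4 CPM on the mouse allele (0.20, SE 0.07) and from 47.2 and 45.1 CPM to 54.8 and 65.4 CPM on the rat allele (0.38, SE 0.08). Sqle did not pass on either, at -0.10 (SE 0.06) and 0.11 (SE 0.06). Fdps rose from 3.39 and 5.19 CPM to 6.01 and 6.91 CPM on the mouse allele (0.58, SE 0.19) and from 476.4 and 462.9 CPM to 518.9 and 549 CPM on the rat allele (0.19, SE 0.06). Several of the smaller calls were lost in other fits. On the mouse allele Lss was lost without either WT library, without rCdx2-OE RMES, with DESeq2 and without the filter on low counts (log2 fold change 0.09 to 0.23 over these 5), and Fdps without WT replicate 1 (0.31) and without the filter (0.59). On the rat allele Idi1 (0.08 and 0.18), Fdps (0.20 and 0.16) and Insig1 (-0.16 and -0.17) were lost without either WT library, and Idi1 also with DESeq2 or its scaling (0.11 in both) and without the filter (0.14).

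**Figure D3:**
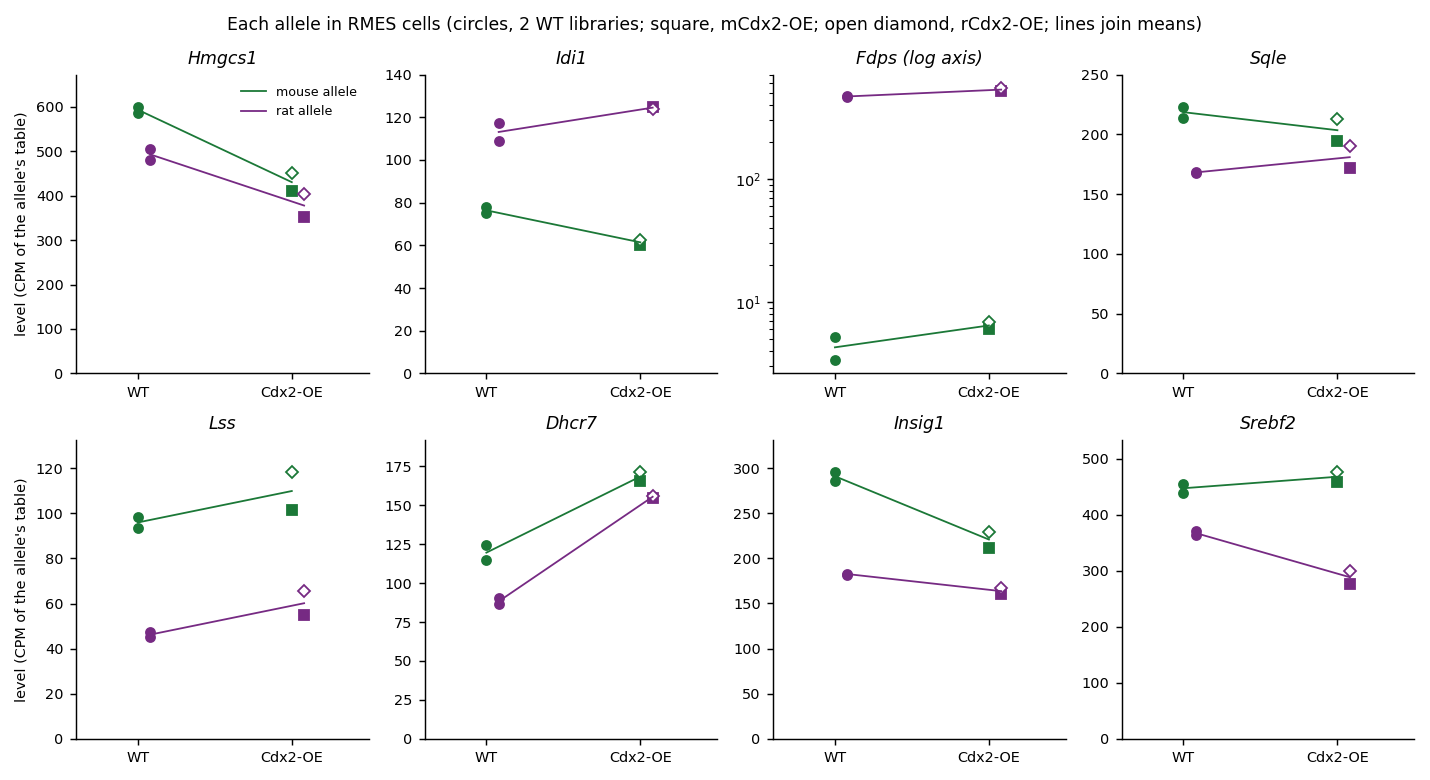
Level of each gene on the mouse (green) and rat (purple) allele of RMES cells (y axis, CPM of that allele's table, a log axis for Fdps), with circles for the 2 WT libraries, a square for mCdx2-OE, an open diamond for rCdx2-OE and lines joining the means. Hmgcs1 and Insig1 fell and Dhcr7 rose on both alleles, while the lines of Idi1 ran in opposite directions.

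The difference between alleles in the response was tested with the library as a block. All 8 genes passed, against 62.1% of all 13605 genes shared by name. Induction acted more upward on the mouse allele for Srebf2, by 0.39 (SE 0.04, adjusted p = 9.7e-09), and for Fdps, by 0.38 (SE 0.11, adjusted p = 0.0056). It acted more upward on the rat allele for Idi1, by 0.48 (mouse minus rat -0.48, SE 0.05, adjusted p = 3.2e-09), and for Dhcr7 (-0.34, SE 0.05), Insig1 (-0.26, SE 0.05), Sqle (-0.23, SE 0.05), Lss (-0.21, SE 0.05) and Hmgcs1 (-0.10, SE 0.04). The calls of Hmgcs1 and Fdps were lost with DESeq2 (adjusted p = 0.14 and 0.30). Hmgcs1 was also lost without WT RMES replicate 1 (-0.11) or 2 (-0.05), Fdps without replicate 1 (0.10) and Lss without replicate 2 (-0.18). For Idi1, Sqle, Dhcr7, Insig1 and Srebf2 the call stood in each of these fits.

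In WT RMES cells the alleles themselves differed for all 8 genes by counts. The mouse allele was higher for 6, against 41.5% of all genes, and lower for Idi1 and Fdps, against 40.2%. The log2 ratio of mouse to rat ran from 0.21 (Hmgcs1) to 0.99 (Lss) for the 6, and was -0.63 for Idi1 and -6.83 for Fdps. These ratios turned with the annotated gene length, which is longer in the mouse table for each gene (10787 against 4514 bases for Lss). Per kb, the ratio was negative for Hmgcs1 (-0.31), Sqle (-0.71), Lss (-0.26), Dhcr7 (-0.71) and Srebf2 (-0.30) as well, and stayed positive for Insig1 alone (0.26). The order of the alleles is therefore not settled for these 5 genes. The change on induction within an allele does not depend on length.

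The response in mESCs, as the mean of mCdx2-OE and rCdx2-OE against WT, was set against the response of the mouse allele in RMES cells. Of the 8 genes, 7 responded more upward in mESCs, against 26.4% of 17377 genes. The difference was 1.66 for Insig1 (SE 0.11, adjusted p = 7.9e-10), 1.48 for Hmgcs1 (SE 0.11, adjusted p = 3.3e-09), 1.41 for Fdps (SE 0.42, adjusted p = 0.0082), 0.83 for Dhcr7 (SE 0.11, adjusted p = 3.3e-06), 0.70 for Sqle (SE 0.09, adjusted p = 1.7e-06), 0.48 for Lss (SE 0.10, adjusted p = 0.00073) and 0.40 for Srebf2 (SE 0.10, adjusted p = 0.0030). Idi1 differed by 0.22 (SE 0.24, adjusted p = 0.46). Fdps lost its call without WT RMES replicate 2 (1.07, adjusted p = 0.078). Median differences were 0.76 for the 8 genes and -0.05 for all genes. In WT cells the mouse allele of RMES cells was above mESCs for all 8 genes, Idi1 included (means of 2, tables scaled separately, no test made). Hmgcs1 was at 593 against 230 CPM, Insig1 at 291 against 86.9 CPM, Dhcr7 at 119.6 against 48.5 CPM and Sqle at 218.6 against 117.3 CPM. Idi1 was at 76.4 against 43.5 CPM, Srebf2 at 447.4 against 299.9 CPM, Lss at 95.95 against 71.2 CPM and Fdps at 4.29 against 3.03 CPM. The Cdx2 level of the WT libraries also differed between these cells, and its part was not tested.

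**Figure D4:**
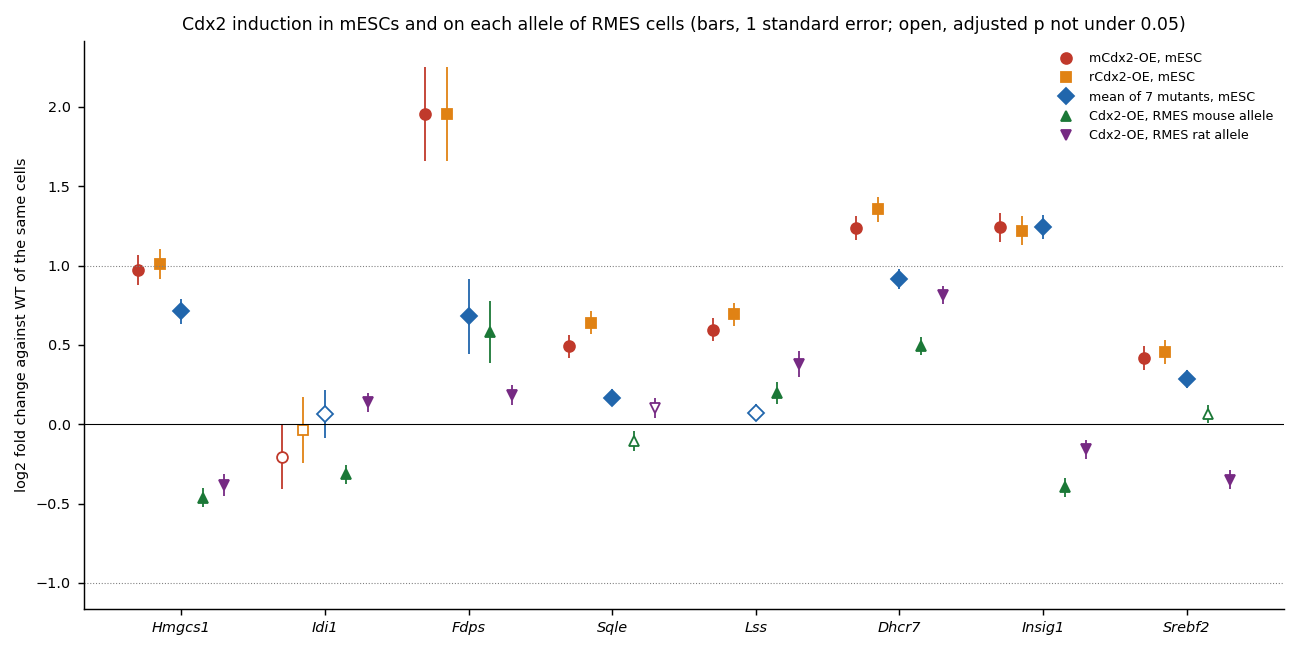
Log2 fold change of each gene against WT of the same cells (y axis) for 5 comparisons, with bars of 1 SE, open symbols where the adjusted p was not under 0.05 and dotted lines at 2-fold. In mESCs (circles, squares, diamonds) all genes but Idi1 lay above 0, whereas Hmgcs1 and Insig1 lay below 0 on both RMES alleles (triangles).

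The wider pathway was counted from 6 lists of 62 genes in all (Srebf1 is in 2 of them) in mCdx2-OE against WT mESCs, where 34% of all genes rose and 35.8% fell at any fold, and 18.4% rose and 15% fell over 2-fold. Of 14 other enzymes of cholesterol synthesis, 11 rose and 1 fell at any fold and 5 rose over 2-fold, with a median of 0.72. Of these, the late sterol enzymes Hsd17b7 and Nsdhl had log2 fold changes of 1.88 and 1.499. Of 9 genes of sterol sensing and SREBP processing, 4 rose and none fell at any fold, a share of rises near that of all genes. Of 12 uptake and transport genes, 8 rose and 1 fell, and 6 rose over 2-fold, among them the lipoprotein receptors Lrp8 (2.22) and Vldlr (1.98). Of the 7 tested of 8 genes on the efflux and storage side, 4 rose and 1 fell over 2-fold, with the sterol exporters Abca1 and Abcg1 at 2.46 and 1.36 and the apolipoprotein Apoe at -2.12. Of 11 genes of fatty acid synthesis, 10 rose, 6 of them over 2-fold, and the desaturases Scd1 and Scd2 had values of 3.00 and 1.92. By contrast, 6 of 9 genes of the non-sterol branches of the mevalonate pathway fell and none rose, and only Pdss1, of ubiquinone synthesis, passed 2-fold (-1.03).

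In RMES cells some lists turned and others did not. On the mouse allele 4 of the 14 other cholesterol enzymes rose and 7 fell, and 1 of the 11 fatty acid genes rose and 10 fell, with medians of -0.19 and -0.37. Scd1 was at -0.37 there, Scd2 at -1.04 and Abca1 at -1.02, against their positive values in mESCs. Of the 10 fatty acid genes that rose in mESCs, 9 fell here, whereas Hsd17b7 (0.77), Nsdhl (0.27), Lrp8 (0.88) and Abcg1 (1.47) rose in both and Apoe (-1.47) fell in both. Of the sterol sensing genes 4 rose and 2 fell, and 2 rose in both cells. Of the 10 tested uptake and transport genes 4 rose and 3 fell, and on the rat allele 7 of 12 rose, 4 of them over 2-fold, and 1 fell. Of the non-sterol genes 7 of 9 fell, among them the 6 that fell in mESCs, with Pdss1 at -1.14.

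Over the 20 mESC libraries, the log2 level of each member was correlated with the mean of the other 7 (standardised), as a description of libraries that share WT and constructs. Pearson's r was 0.95 for Hmgcs1, 0.95 for Dhcr7, 0.87 for Srebf2, 0.80 for Sqle, 0.77 for Lss, 0.76 for Insig1, 0.58 for Fdps and 0.06 for Idi1. Among 11890 other genes, r with the mean of all 8 had a median of -0.07 and a 95th percentile of 0.82, so Hmgcs1, Dhcr7 and Srebf2 lay above that percentile and the other 5 below it. The genes whose levels were most like the mean of the 8 standardised members were Itga6 (r = 0.98), Pvr, Osbpl6, Nceh1 and Sbf2. Among the 18 induced libraries, centred within replicate number, Osbpl6 (r = 0.98), Itga6 and Pvr were again among the 5 most alike. Itga6 was at 104.7 CPM in WT, 230.2 CPM in mCdx2-OE and 252.4 CPM in rCdx2-OE, and at 139.9 to 146 CPM in the mutants without change 3 and 177.1 to 201.8 CPM in those with it (means of 2).

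To see whether the chromatin of these genes changed, ATAC-seq peaks of 1 WT and 1 mCdx2-OE mESC library were read at the members, without replicates and hence without a test. Each of the 8 genes had a peak at its start site. None of these 8 peaks differed over 2-fold, against 14.1% of 14037 start-site peaks. Scaled to equal totals, the log2 ratio of mCdx2-OE to WT was -0.27 for Hmgcs1 (349 and 393 reads in WT and mCdx2-OE, before scaling) and -0.20 for Srebf2 (320 and 377 reads). It was between 0.13 (Insig1, 355 and 528 reads) and 0.41 (Fdps, 189 and 340 reads) for the other 6. The median was 0.27 for the 8 genes and 0.31 for all start-site peaks, and without the scaling all 8 ratios were positive (0.17 to 0.84). Every one of these start-site peaks held at least 144 reads in either library.

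Within 10 kb of the genes, 6 of 29 other ATAC peaks with a scaled total of 40 or more passed 2-fold (20.7%, against 34.2% of all 85394 such peaks), in 3 of the 8 genes. A peak 6.22 kb upstream of Lss rose from 5 to 40 reads (log2 ratio 2.38, 95% limits 1.22 and 4.26 for counting error only). A peak in an intron of Srebf2, 23.8 kb from its start, rose from 47 to 157 reads (1.29, limits 0.82 and 1.80). The other 4 fell. At Srebf2 a peak 1.71 kb upstream went from 50 to 24 reads (-1.45), and intronic peaks 18.3 and 40.8 kb from the start from 25 to 13 reads (-1.31) and from 175 to 110 reads (-1.10). At Dhcr7 a peak downstream of the gene, 25.8 kb from its start, went from 65 to 34 reads (-1.34).

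Cdx2 ChIP-seq peaks, deposited as 1 merged set for both factors in each cell type, lay within 10 kb of 4 of the 8 genes in mESCs, against 61.3% of 21951 protein-coding genes, and of 3 of the 8 on the mouse genome of RMES cells, against 53.5%. With only 8 genes, counts this near the shares of all genes are not read as a difference. None lay near Hmgcs1, Idi1, Fdps or Insig1. The strongest, by reads summed over both mESC libraries, were the sites 6.01 kb upstream of Lss (474 reads, 163 in RMES cells) and 23.7 kb into Srebf2 (293 reads, 88 in RMES cells), and both overlapped the ATAC peaks that rose. Weaker peaks were found 9.22 kb into Sqle (154 reads), 40.7 kb (96) and 30.9 kb (69) into Srebf2, 33.4 kb from the start of Lss beyond its end (91) and 11.6 kb into Dhcr7 (49). The ATAC peak overlapping the Srebf2 site at 40.7 kb is the one that fell from 175 to 110 reads. Those overlapping the Srebf2 site at 30.9 kb (log2 ratio -0.18) and the Dhcr7 site at 11.6 kb (0.35) did not pass 2-fold. At these genes, peaks overlapping a Cdx2 site thus rose, fell or stayed within 2-fold. Over the whole genome, the paper reports mCdx2 binding mainly at the ATAC peaks that opened.

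**Figure D5:**
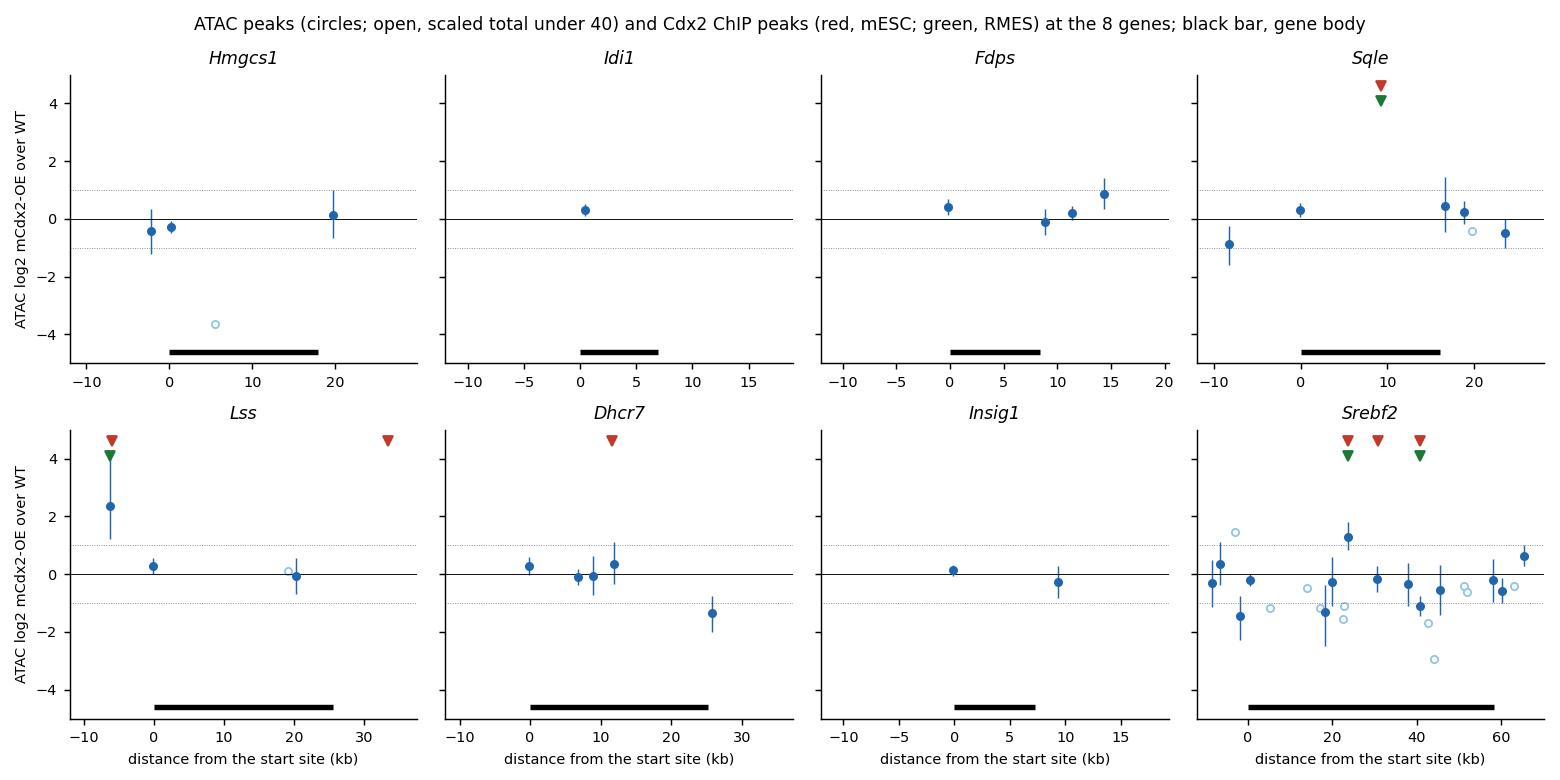
ATAC log2 ratio of mCdx2-OE to WT mESCs (y axis; bars, 95% limits for counting error; open circles, scaled total under 40) and positions of Cdx2 ChIP peaks (triangles at the top; red mESC, green RMES) by distance from the start site (x axis, kb), with the gene body as a black bar. The circles at the 8 start sites lie between -0.27 and 0.41, and the Lss peak at -6.22 kb and the Srebf2 peak at 23.8 kb lie above 2-fold under ChIP triangles.

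The letters TTTATNG, a form of the Cdx motif, were in 63.8% of the 91665 mESC ChIP peaks, whose median width was 376 bases, and in 10.9% of all promoter windows but in none of the 8 windows of the 6 genes. They occurred in the peaks at Sqle, Lss and Dhcr7 (1 or 2 matches each) and in none of the 3 at Srebf2. The central 200 bases are shown for the member-linked sites where a Cdx2 peak overlapped an ATAC peak that rose over 2-fold. Cdx2 peaks also overlapped ATAC peaks that did not rise, as given above. Capitals mark TTTATNG, of which the whole Lss peak (896 bases) holds 2 matches and the Srebf2 peak (416 bases) holds 0. Other forms of the motif were not searched, so a count of 0 does not show that a Cdx motif is absent.
Lss upstream site, chr10:76525238-76525437: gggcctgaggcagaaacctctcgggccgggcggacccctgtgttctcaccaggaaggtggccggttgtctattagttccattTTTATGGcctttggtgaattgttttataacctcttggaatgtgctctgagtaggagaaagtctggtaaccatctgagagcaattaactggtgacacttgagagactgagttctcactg
Srebf2 intronic site, chr15:82170785-82170984: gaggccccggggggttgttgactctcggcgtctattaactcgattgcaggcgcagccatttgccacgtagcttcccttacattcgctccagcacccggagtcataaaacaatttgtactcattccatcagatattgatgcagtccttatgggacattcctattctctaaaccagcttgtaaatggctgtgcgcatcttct
Both are plus-strand sequence of GRCm38.p6 (RefSeq). Lss rose in mCdx2-OE mESCs by 0.59 and Srebf2 by 0.42 on the log2 scale. The part of Cdx2 binding in the rises of the 8 genes was not tested.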

How the data were processed

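Gene counts of 20 mESC and 4 RMES RNA-seq libraries, read counts of 1 ATAC-seq peak set (2 libraries) and of Cdx2 ChIP-seq peak sets (4 libraries) were used as deposited. The authors mapped RNA reads with STAR 2.7.0d to mm10, and to mm10 and rn6 for RMES cells, assigned each RMES read to the genome with the smaller edit distance, and made raw counts per gene name with strand-specific featureCounts against Ensembl genes without pseudogenes. ATAC-seq and ChIP-seq reads were mapped by the authors with Bowtie2 2.3.4.3 and peaks called with MACS2. The rat-genome ChIP table was not used here. The counts are integers with no normalisation, and reads that fit 2 gene copies or both genomes equally can be lost. Whether this bears on mouse Fdps or on allele ratios was not tested.

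The members and gene lists were chosen with earlier results of these data known. Of the mESC genes, 16000 passed filterByExpr and were fitted with edgeR 4.0.16 (TMM, glmQLFit, no replicate block); comparisons with WT were called at an adjusted p under 0.05 and over 2-fold, the others at any fold. The additive model took 16 libraries, the allele model 8 columns of 4 RMES libraries joined by gene name with the library as a block, and RMES mCdx2-OE and rCdx2-OE were taken as replicates. DESeq2 1.42.0 was an alternative. Models were tested on simulated data. ATAC counts were scaled to the mean of both totals, 1 was added, and a scaled total of 40 was required, as were peaks within 1 kb of a start site. Their limits cover counting error only. All 8 members are named in each comparison. Of each list the genes named are the 2 with the largest rises and the 2 with the largest falls past the threshold in mCdx2-OE against WT, at a mean of at least 50 counts, and of other genes the 5 most alike to the members. A gene that this rule also names is not reported here.

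Replicates 1 and 2 of the mESC lines were deposited as separate count tables. Nothing in the labels says what a replicate number shares, and it was not used as a pairing in the reported fits. The totals per library set the precision: WT mESC libraries are the deepest, and CPM of members other than Fdps rest on 546 counts or more. No sample was left out, and no column was unassigned.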

Additional observations from a re-analysis of the deposited data

Results flagged for a closer look

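The response to Cdx2 induction differed between the mouse and the rat allele of RMES cells for each of the 8 genes, by a test of the difference itself (edgeR, library as a block, adjusted over 13605 genes, of which 62.1% passed). Mouse minus rat, the log2 difference was 0.39 for Srebf2, 0.38 for Fdps, -0.48 for Idi1, -0.34 for Dhcr7, -0.26 for Insig1, -0.23 for Sqle, -0.21 for Lss and -0.10 for Hmgcs1. Of these, Idi1 moved in opposite directions on the 2 alleles, with both calls made at any fold, although its rise on the rat allele was lost without either WT library. A total of 3 of the 8 differences were not stable. Hmgcs1 and Fdps lost the call with DESeq2 (adjusted p = 0.14 and 0.30). With 1 WT library left out, Hmgcs1 lost it at -0.11 or -0.05, Fdps at 0.10 and Lss at -0.18.

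The response also differed between mESCs and the mouse allele of RMES cells for 7 of the 8 genes, again by a test of the difference (edgeR, adjusted over 17377 genes). mESC minus RMES, it was 1.66 for Insig1, 1.48 for Hmgcs1, 1.41 for Fdps, 0.83 for Dhcr7, 0.70 for Sqle, 0.48 for Lss and 0.40 for Srebf2. The Fdps difference lost the call without WT RMES replicate 2 (1.07). Insig1 and Hmgcs1 rose in mESCs and fell in RMES cells. The libraries labelled WT RMES held Cdx2 RNA at 127.8 CPM on the mouse allele, against 1.29 CPM in WT mESCs, and its part in these differences was not tested.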

How the results depend on the processing

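Without the 2-fold threshold the number of the 8 genes called was 7 in mCdx2-OE, 7 in rCdx2-OE and 6 in the mean of the mutants, and 6 on the mouse and 7 on the rat allele of RMES cells. With the 14 mutant libraries alone, 7 of the 8 genes were called for change 3, with or without the replicate block, and Sqle had the opposite sign (0.14 in both), while all genes called went from 5535 of 15114 to 7618 of 14699 without the block and 8601 with it. Per kb of gene length, the WT RMES allele ratio turned for Hmgcs1 (-0.31), Sqle (-0.71), Lss (-0.26), Dhcr7 (-0.71) and Srebf2 (-0.30), by the lengths used. With start-site peaks taken within 5 kb in place of 1 kb, 1 ATAC peak passed, the lower one upstream of Srebf2. With single libraries left out, the number of genes called ranged from 3 to 4 in mCdx2-OE and in rCdx2-OE, 6 to 7 for mutants against intact Cdx2, 3 to 5 for change 3, 6 to 8 for the allele difference and 6 to 7 for mESC against RMES cells. Over all genes, the mCdx2-OE against rCdx2-OE count of 3 was 22 with DESeq2, 1 without a filter and 0 or 1 with a library left out, and the 0 of change 1 was 24 with DESeq2, 1 without a filter and 4 in the mutants alone. The cause of the last 2 was not tested. Of the values of single members under these alternatives, 1760 kept direction and side of the threshold, 57 were called in neither fit and changed sign, 19 lost and 13 gained a call, and 7 turned, those given above.

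Same-numbered libraries deviated together within the kinds of line but not across them. Correlating the difference between replicates over 11898 genes, all 21 pairs of mutants were over 0.1 (0.32 to 0.52), as was mCdx2-OE with rCdx2-OE (0.76), while none of the 14 pairs of a mutant with an intact line (-0.20 to -0.06) or of the 9 pairs of WT with an induced line (-0.26 to -0.04) was. On principal component 4, all 9 induced lines were split by number. In the mutants alone, the replicate block, added after seeing the data, moved the genes called from 4 to 66 for change 1 and from 0 to 228 for change 2, and none of the 8 genes was among them. With the replicate block, the number of the 8 genes called stayed at 3 in mCdx2-OE, 4 in rCdx2-OE, 1 in the mutants, 6 for mutants against intact Cdx2 and 4 for change 3, while all genes called went from 5339 to 5331, 5513 to 5507, 4197 to 4205, 10240 to 10430 and 5535 to 5685, and from 3 to 1 for mCdx2-OE against rCdx2-OE.

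Depth limits mouse Fdps most, at 47 to 386 counts per mESC library. With 2 libraries per condition, or 2 against 2 in RMES cells, small changes pass or fail with 1 library.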
